A study of Mus musculus with 24 samples.

Results

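Transcript levels of 8 complement genes of the mouse are described here: C1qa, C1qb and C1qc, which encode the chains of the recognition molecule C1q; C3, Cfb and Cfp, which encode the central component, factor B and properdin; and C3ar1 and C5ar1, which encode the receptors for the cleavage products C3a and C5a. They were chosen by symbol from the 23309 gene models that both expression tables of the series list, and all 8 were found once in each table. The first table has 12 RNA libraries from macrophages grown out of bone marrow (BMDM), from C57BL/6 wild-type or Tet2 knockout mice, kept for 7 days with M-CSF and L929-conditioned medium. These cells were left untreated or given interleukin 4 (IL4) at 20 ng/ml for 10 or 24 h, which makes 6 groups of 2 libraries, sequenced after ribosomal RNA depletion. The second has 8 libraries of macrophages from tumours (TAM), which were CD11b+ F4/80+ by sorting. The tumours were YUMM1.7 melanomas grown under the skin of male C57BL/6J mice aged 6 to 8 weeks, taken at 4 weeks and sequenced from polyadenylated RNA. YUMM1.7 is a mouse melanoma line with mutant Braf. All 8 mice carried the floxed alleles Tet2 fl/fl. The 4 wild-type libraries came from LysMcre wt/wt Tet2 fl/fl mice and the 4 knockout libraries from LysMcre +/wt Tet2 fl/fl mice, in which Cre is driven from the lysozyme M locus and so acts in myeloid cells, neutrophils included. A further 4 libraries of the series measure 5-hydroxymethylcytosine and were not analysed here.

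Complement is a cascade of plasma proteins that tags particles for uptake and releases small chemotactic peptides. C1q starts the classical pathway when it binds antibody, dying cells or synapses. C3 is the step at which all routes meet, factor B is a protease of the alternative pathway, and properdin holds that pathway's convertase together. Most plasma complement is made by the liver, but tissue macrophages are a main source of C1q and of properdin, and they carry the receptors for C3a and C5a. Tet2 is an enzyme that oxidises 5-methylcytosine in DNA, and IL4 acts on macrophages through STAT6.

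For the genes that the results turn on, the 250 bases before the annotated start are printed so that the letters can be read beside the levels, for the adjacent pair C1qb and C1qc and for the 3 genes with the largest IL4 or genotype differences other than C1qa. A window from RefSeq (mouse build GRCm38.p6) matched 6 of the 8 genes, all but C1qa and Cfb. Each is written 5′ to 3′ on the gene's own strand, and capitals mark the letters of the motifs listed after them.
C1qb, chr4:136886201-136886450, minus strand: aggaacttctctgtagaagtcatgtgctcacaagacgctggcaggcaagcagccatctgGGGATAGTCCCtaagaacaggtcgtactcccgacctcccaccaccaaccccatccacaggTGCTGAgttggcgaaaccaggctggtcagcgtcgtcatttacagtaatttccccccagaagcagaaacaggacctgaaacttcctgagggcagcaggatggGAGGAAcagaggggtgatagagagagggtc
C1qc, chr4:136892915-136893164, minus strand: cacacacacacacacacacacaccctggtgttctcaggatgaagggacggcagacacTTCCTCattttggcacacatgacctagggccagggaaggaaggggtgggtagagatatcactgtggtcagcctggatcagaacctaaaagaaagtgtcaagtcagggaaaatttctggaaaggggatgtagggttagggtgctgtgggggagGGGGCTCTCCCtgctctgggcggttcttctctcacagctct
C3, chr17:57228137-57228386, minus strand: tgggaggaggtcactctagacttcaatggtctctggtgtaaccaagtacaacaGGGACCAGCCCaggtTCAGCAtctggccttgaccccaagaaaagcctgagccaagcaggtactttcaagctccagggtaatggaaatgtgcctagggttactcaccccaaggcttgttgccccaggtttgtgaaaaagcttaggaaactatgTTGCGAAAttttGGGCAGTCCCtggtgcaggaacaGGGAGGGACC
C3ar1, chr6:122856158-122856407, minus strand: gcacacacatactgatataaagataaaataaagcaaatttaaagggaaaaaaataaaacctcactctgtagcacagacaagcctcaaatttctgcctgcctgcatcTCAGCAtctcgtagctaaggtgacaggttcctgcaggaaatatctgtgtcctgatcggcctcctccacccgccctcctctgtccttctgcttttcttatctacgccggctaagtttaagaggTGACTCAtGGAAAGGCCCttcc
C5ar1, chr7:16259339-16259588, minus strand: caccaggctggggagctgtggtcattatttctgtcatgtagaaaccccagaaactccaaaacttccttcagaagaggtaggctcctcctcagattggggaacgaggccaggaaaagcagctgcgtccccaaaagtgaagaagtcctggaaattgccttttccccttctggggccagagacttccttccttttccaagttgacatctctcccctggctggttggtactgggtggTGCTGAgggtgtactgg
The motifs were searched on both strands. They were GAGGAA (core of PU.1 sites), TGCTGA (half-site of MAF factors), TTGCNNAA (C/EBP), TGANTCA (AP-1), GGGNNNNNCC (an outline of NF-kB sites, whose matches on the 2 strands can overlap), GAAANNGAAA (interferon-stimulated response element) and a pair of STAT motifs, TTCNNNGAA and TTCNNNNGAA. The C1qb window held GAGGAA on its own strand at −30 to −25 relative to the start, and the C1qc window held it on the other strand at −193 to −188; of all 32851 windows of the table, 23.3% hold it. The C3 window held TTGCGAAA at −45 to −38, a C/EBP match that 9.56% of all windows have, and the NF-kB outline 4 times, which 45.8% have at least once. The C3ar1 window held TGACTCA at −22 to −16, an AP-1 match found in 6.75% of all windows. TGCTGA was present in the windows of C1qb, C3, C3ar1 and C5ar1, against 16.1% of all windows. The STAT motifs (7.02% and 5.85% of all windows) and the interferon motif (2.98%) were not among the letters of the 6 windows. C1qb, C1qc and C1qa are neighbours on chromosome 4, and Cfb neighbours C2 on chromosome 17.

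Values are FPKM, fragments scaled to transcript length and to library size, so they are per length and levels of different genes can be set side by side within a library. The FPKM summed over all genes still differed between libraries, from 365118 to 557183 in BMDM. All 9 macrophage marker genes listed were at 1 FPKM or more in all 20 libraries. Tet2 itself was at 4.11 to 9.82 FPKM in the 6 wild-type BMDM libraries and 4.02 to 11.3 in the 6 knockout ones, and at 7.75 to 16.1 against 14.4 to 19.0 in TAM. This gene-level value did not separate the genotypes, and the libraries are therefore called labelled knockout. Read depth is not given; from the smallest steps in the values, relative depth spanned 0.847 to 1.39 over the BMDM libraries. Over the TAM libraries it spanned 0.215 to 1, lowest in library 5 (labelled knockout). In BMDM the summed level of 10 fibroblast markers was 9.42 to 23.3 FPKM in the labelled knockout libraries against 2.55 to 5.05 in wild type, and the 3 markers that could be tested were higher at each time. One TAM library, wild type 8, stood apart with a fibroblast sum of 258.4 FPKM against 11.8 to 29.7 in the other 7 and an erythroid sum of 233.8. As these are bulk samples, fewer cells of a type and less RNA per cell cannot be told apart.

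In wild-type BMDM, C3 rose steeply and C5ar1 fell with IL4, while C3ar1 fell by 24 h; C1qa, C1qb and Cfp rose more modestly by 24 h, though quantile normalization turned these 3 differences to −0.081, −0.055 and −0.044. At 10 h, 1 of the 8 genes was higher and 1 lower than in untreated cells at an adjusted p under 0.05, where 42.4% of the 10510 genes tested passed; the median difference of the 8 was 0.25 log2 units against 0.09 over all genes. By 24 h, 4 were higher and 2 lower, where 50.0% of all genes passed, with a median of 0.45 against 0.06. Between 10 and 24 h, C3 rose further and C3ar1 fell, so 2 of 8 passed where 25.9% of all genes did. The count at 24 h fell to 3 of 8 without untreated wild-type replicate 2, without 24 h wild-type replicate 2 or under quantile normalization, and to 2 in a fit of the compared libraries alone, so that it was not above the background share under all alternatives. The 2 in 8 at the other steps is at or below the background share.

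In labelled knockout BMDM the same large pair of changes was present, C3 up and C5ar1 down. At 10 h C3 and Cfb were higher and C5ar1 lower, 3 of 8 where 38.8% of all genes passed. At 24 h C3 was higher and C5ar1 lower, 2 of 8 against 43.7% of all genes, and from 10 to 24 h C3 rose and Cfb fell, 2 of 8 against 23.0%. The median difference of the 8 from untreated was 0.12 at 10 h and 0.23 at 24 h, against 0.06 and 0.07 over all genes.

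**Figure D1:**
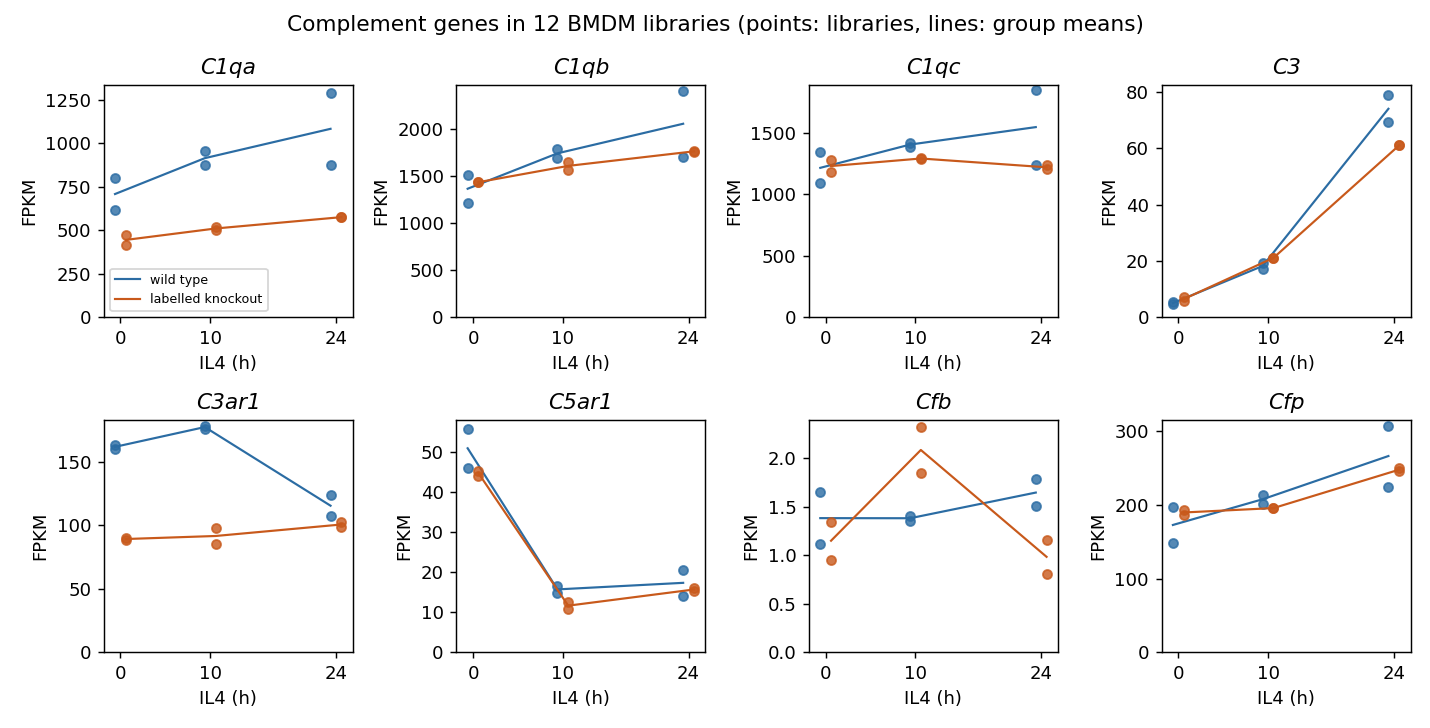
FPKM of the 8 genes in the 12 BMDM libraries against hours of IL4 (x axis to scale, points set slightly to the left for wild type and to the right for labelled knockout; lines join the means of 2 libraries). C3 climbs from 4.83 to 7.28 FPKM in untreated cells to 61.0 to 78.8 at 24 h in both genotypes, C5ar1 falls in both, and C1qa is lower in labelled knockout at each time.

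Between genotypes, C1qa and C3ar1 were lower in labelled knockout BMDM. In untreated cells C3ar1 was the gene that passed, 1 of 8 where 2.70% of all genes did. At 10 h C1qa and C3ar1 passed, 2 of 8 against 2.84%, and at 24 h C1qa passed, 1 of 8 against 7.43%. Averaged over the 3 times, C1qa and C3ar1 passed as lower, 2 of 8 against 9.94% of all genes. The median genotype difference of the 8 was −0.06 at 0 h, −0.12 at 10 h and −0.24 at 24 h, where over all genes it was 0.06, 0.01 and 0.04. At 10 h the 2 libraries of each genotype did not overlap for any of the 8 genes, with C3 and Cfb higher and the other 6 lower in labelled knockout; 51.6% of all genes tested were apart in this way. The design text calls the 2 libraries of a group biological replicates, and where they were not separate cultures or animals the p-values measure only the spread between these samples.

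The chains of C1q were among the most abundant transcripts of these macrophages. C1qb had a median rank of 20 among 23307 symbols over the 12 BMDM libraries (median 1672 FPKM), C1qc a median rank of 26 (1280 FPKM) and C1qa 89.5 (597 FPKM). Within every BMDM library C1qb was above C1qc, and C1qc above C1qa, although the ranges of C1qb and C1qc over libraries overlap.

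C1qa, the A chain, was at 801 and 618 FPKM in untreated wild-type libraries and at 472 and 419 in labelled knockout ones. After 10 h of IL4 it was at 956 and 874 against 517 and 505 FPKM, and after 24 h at 875 and 1292 against 576.1 and 576.4 FPKM. All 6 labelled knockout libraries lay below all 6 wild-type libraries. The genotype difference on the log2(FPKM + 1) scale was −0.66 ± 0.19 (SE) at 0 h with an adjusted p of 0.116 by limma, −0.84 at 10 h with an adjusted p of 0.0418, and −0.88 at 24 h with an adjusted p of 0.0207. The mean over times was −0.79 ± 0.11 with an adjusted p of 0.00106. Under median-of-ratios scaling and quantile normalization the 0 h adjusted p was 0.0220 and 0.0070. Without a filter on low values the call was lost at 10 h (adjusted p = 0.143) and at 24 h (0.0778), and in the fit of the compared libraries alone it was lost at 24 h (0.186). The 10 h call rests on both libraries of both groups: without any 1 of the 4 the adjusted p lay between 0.190 and 0.290. At 24 h the adjusted p was 0.0720 without wild-type replicate 2, 0.0998 without labelled knockout replicate 1 and 0.106 without labelled knockout replicate 2.

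C1qb, the B chain, was at 1514 and 1214 FPKM in untreated wild-type libraries and at 1436 and 1431 in labelled knockout ones. It was at 1786 and 1691 against 1652 and 1560 FPKM after 10 h, and at 1701 and 2404 against 1764 and 1756 FPKM after 24 h. The genotypes interleave at 0 and 24 h, and the mean genotype difference was −0.08 with a 95% interval of −0.30 to 0.15. C1qc, the C chain, was at 1341 and 1089 FPKM in untreated wild-type libraries against 1277 and 1182 in labelled knockout ones, at 1420 and 1388 against 1283 and 1298 after 10 h, and at 1241 and 1850 against 1235 and 1203 after 24 h. Its mean genotype difference was −0.14 with an interval of −0.37 to 0.10, so a fall of the size seen for C1qa lies outside the intervals of both other chains.

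With IL4, wild-type C1qa rose by 24 h by 0.60 ± 0.19 log2 units (adjusted p = 0.0223) and C1qb by 0.58 ± 0.18 (adjusted p = 0.0199), while C1qc had a difference of 0.33 that did not pass. Wild-type 24 h replicate 2 had the highest value of all 3 chains; without it the C1qa difference was 0.32 and that of C1qb 0.33, neither past the threshold (adjusted p = 0.157 and 0.137). Without untreated wild-type replicate 2 the calls were also lost, at 0.41 and 0.42. Without a filter on low values both calls were lost too (adjusted p = 0.0851 and 0.0847). Under quantile normalization both differences turned to −0.081 and −0.055. Summed over all genes, 24 h wild-type replicate 2 had the highest FPKM of the BMDM libraries (557183). Untreated wild-type replicate 2 had the lowest (365118). The part of these totals in the rises of C1qa, C1qb and Cfp was not tested. In labelled knockout cells the 24 h differences were 0.37 for C1qa, 0.30 for C1qb and −0.01 for C1qc, and none passed (adjusted p = 0.133, 0.202 and 0.968). The test of the difference between genotypes gave −0.22 ± 0.26 for C1qa at 24 h (adjusted p = 0.685).

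The ratio of C1qa to C1qb within a library was chosen for description after the values were seen, and it has no test. In the 6 wild-type BMDM libraries it lay between 0.509 and 0.537, and in the 6 labelled knockout libraries between 0.293 and 0.329, with little movement over IL4 time in either genotype. Because the ratio is taken inside a library, it does not depend on scaling between libraries. The ratio of C1qc to C1qb overlapped between genotypes (0.730 to 0.897 in wild type and 0.685 to 0.889 in labelled knockout) and was lower at 24 h than in untreated cells in both: 0.886 and 0.897 against 0.730 and 0.770 in wild type, and 0.889 and 0.826 against 0.700 and 0.685 in labelled knockout. In TAM the C1qa to C1qb ratio overlapped between genotypes, at 0.472 to 0.728 in 4 wild-type and 0.495 to 0.776 in 4 labelled knockout libraries.

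**Figure D2:**
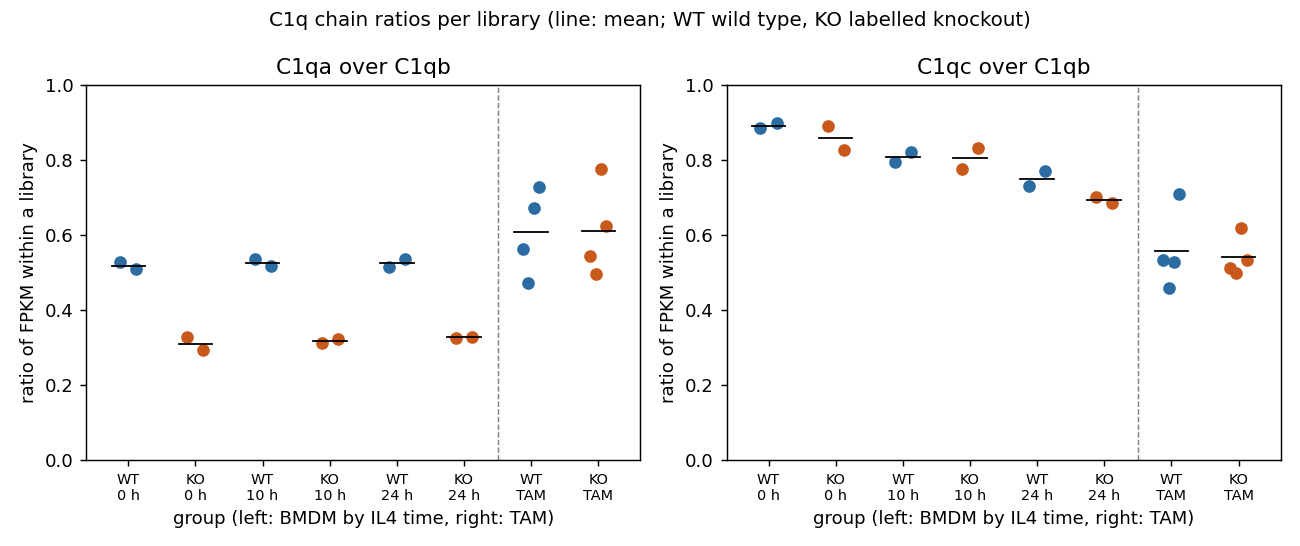
Ratio of C1qa to C1qb FPKM (left panel) and of C1qc to C1qb FPKM (right panel) in each library, by group; points are libraries, horizontal lines group means, and the dashed line separates BMDM from TAM. In BMDM the C1qa to C1qb ratio is 0.509 to 0.537 in wild type and 0.293 to 0.329 in labelled knockout, while the genotypes overlap in TAM and for C1qc over C1qb.

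C3, the protein on which the pathways converge, had the largest response to IL4 of the 8 genes. In untreated cells it was at 4.83 and 5.39 FPKM in wild type and 7.28 and 5.76 in labelled knockout. It reached 19.2 and 17.3 against 21.1 and 21.2 FPKM at 10 h, and 69.2 and 78.8 against 61.03 and 61.09 FPKM at 24 h. No library of one time overlapped with another time. In wild type the difference was 1.66 ± 0.12 log2 units at 10 h (adjusted p = 2.5e-06) and 3.62 ± 0.12 at 24 h (adjusted p = 5.4e-09), a 14.5-fold ratio of mean FPKM. In labelled knockout it was 1.56 ± 0.12 and 3.05 ± 0.12 (adjusted p = 3.5e-06 and 1.9e-08), a 9.36-fold ratio at 24 h. Labelled knockout cells were higher in C3 at 0 and 10 h and lower at 24 h, with differences of 0.29, 0.20 and −0.27, none of which passed (adjusted p = 0.283, 0.665 and 0.178). The rise to 24 h was smaller by 0.56 ± 0.16 log2 units in labelled knockout, with an unadjusted p of 0.00606 and an adjusted p of 0.145. Fibroblasts also make C3: the summed fibroblast markers were at 23.3 and 21.2 FPKM in untreated labelled knockout cells against 4.65 and 5.04 in wild type, and at 9.42 and 9.55 against 2.56 and 2.55 FPKM at 24 h. With 10 of the 10 fibroblast genes measured, none was at 0 in all 12 libraries; their part in the C3 differences between genotypes was not tested.

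Cfb, which encodes factor B, was barely present in BMDM, with a median rank of 9262.5 of 23307 symbols. It was at 1.11 and 1.65 FPKM in untreated wild-type and 1.34 and 0.954 in labelled knockout libraries, at 1.35 and 1.40 against 1.85 and 2.32 FPKM at 10 h, and at 1.51 and 1.78 against 1.15 and 0.810 FPKM at 24 h. In labelled knockout cells it was higher at 10 h by 0.52 ± 0.15 log2 units (adjusted p = 0.0165) and fell from 10 to 24 h, with a difference of −0.64 ± 0.15 (adjusted p = 0.0102). Without a filter on low values both of these calls were lost (adjusted p = 0.0720 and 0.0518). Wild-type Cfb had differences of 0.01 at 10 h and 0.16 at 24 h, neither past the threshold. The difference of the 10 h response between genotypes was 0.51 ± 0.21, with an unadjusted p of 0.0317 and an adjusted p of 0.994. The Cfb rise was lost without untreated labelled knockout replicate 2 (0.39, adjusted p = 0.134) or labelled knockout 10 h replicate 2 (0.41, 0.121), and the fall without labelled knockout 10 h replicate 2 (−0.53, 0.0826) or 24 h replicate 2 (−0.51, 0.0914).

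Cfp, which encodes properdin, was abundant, with a median rank of 264. It was at 197 and 149 FPKM in untreated wild-type and 193 and 186 in labelled knockout libraries, at 214 and 202 against 195 and 196 at 10 h, and at 225 and 308 against 250 and 246 at 24 h. The genotypes overlap at 0 and 24 h, and the mean genotype difference was −0.01 with a 95% interval of −0.21 to 0.20. The wild-type rise by 24 h was 0.62 ± 0.16 log2 units (adjusted p = 0.0093). It was 0.42 without untreated replicate 2 (adjusted p = 0.0665) and 0.39 without 24 h replicate 2 (0.0632), and −0.044 under quantile normalization. The labelled knockout difference of 0.38 ± 0.16 did not pass (adjusted p = 0.0786).

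The 2 receptors differed from each other. C5ar1, the C5a receptor of myeloid cells, was at 46.2 and 55.9 FPKM in untreated wild-type and 44.2 and 45.4 in labelled knockout libraries. At 10 h it was at 16.7 and 14.8 against 10.7 and 12.6 FPKM, and at 24 h at 14.1 and 20.6 against 16.0 and 15.4 FPKM. Every IL4 library lay below every untreated one. The fall at 10 h had a log2 difference of −1.63 ± 0.16 in wild type (adjusted p = 2.7e-05) and −1.86 ± 0.16 in labelled knockout (adjusted p = 1.1e-05), and at 24 h −1.52 and −1.46, both with SE 0.16. Genotype differences in C5ar1 were −0.18, −0.40 and −0.11 at 0, 10 and 24 h, and none passed (adjusted p = 0.644, 0.368 and 0.702). With C3 rising and C5ar1 falling, the order of the 2 genes crossed: C5ar1 was above C3 in the 4 untreated libraries and C3 above C5ar1 in the 8 libraries with IL4.

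C3ar1, the receptor for C3a, was at 163 and 160 FPKM in untreated wild-type libraries and at 89.6 and 88.7 in labelled knockout ones. At 10 h it was at 176 and 178 against 85.1 and 98.0 FPKM, and at 24 h at 107 and 124 against 103 and 98.6 FPKM. The wild-type libraries were high at 0 and 10 h and came down at 24 h to just above the labelled knockout level, which moved little. The genotype difference was −0.85 ± 0.11 log2 units at 0 h (adjusted p = 0.00186), −0.95 ± 0.11 at 10 h (adjusted p = 8.5e-04) and −0.19 ± 0.11 at 24 h (adjusted p = 0.296), and −0.66 ± 0.06 as the mean over times (adjusted p = 7.7e-05). In a fit of the 4 untreated libraries alone the 0 h adjusted p was 0.0508. Wild-type C3ar1 fell by 24 h, with a difference of −0.49 ± 0.11 from untreated (adjusted p = 0.00375) and −0.62 ± 0.11 from 10 h (0.00239). The call against untreated was lost in a fit of those 4 libraries alone (adjusted p = 0.122). In labelled knockout the 24 h difference was 0.17 ± 0.11 (adjusted p = 0.223).

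Whether the IL4 response differed between genotypes was tested by the interaction. None of the 8 genes passed by limma at 10 h, where 0.0951% of all genes did, or at 24 h, where 0.295% did. At an unadjusted p under 0.05 there was 1 at 10 h (Cfb), where 428 of all 10510 genes were. At 24 h there were 2 (C3 and C3ar1), where 1913 of all genes were. C3ar1 came nearest, with a 24 h response higher by 0.66 ± 0.15 log2 units in labelled knockout (adjusted p = 0.0891). That adjusted p was 0.0350 with median-of-ratios scaling, 0.0270 with quantile normalization and 0.0329 without untreated wild-type replicate 1. The median interaction of the 8 was −0.16 at 10 h and −0.25 at 24 h, against −0.05 and −0.02 over all genes. The genotype and IL4 comparisons share their untreated and treated libraries, so their values stand side by side and are not separate evidence.

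**Figure D3:**
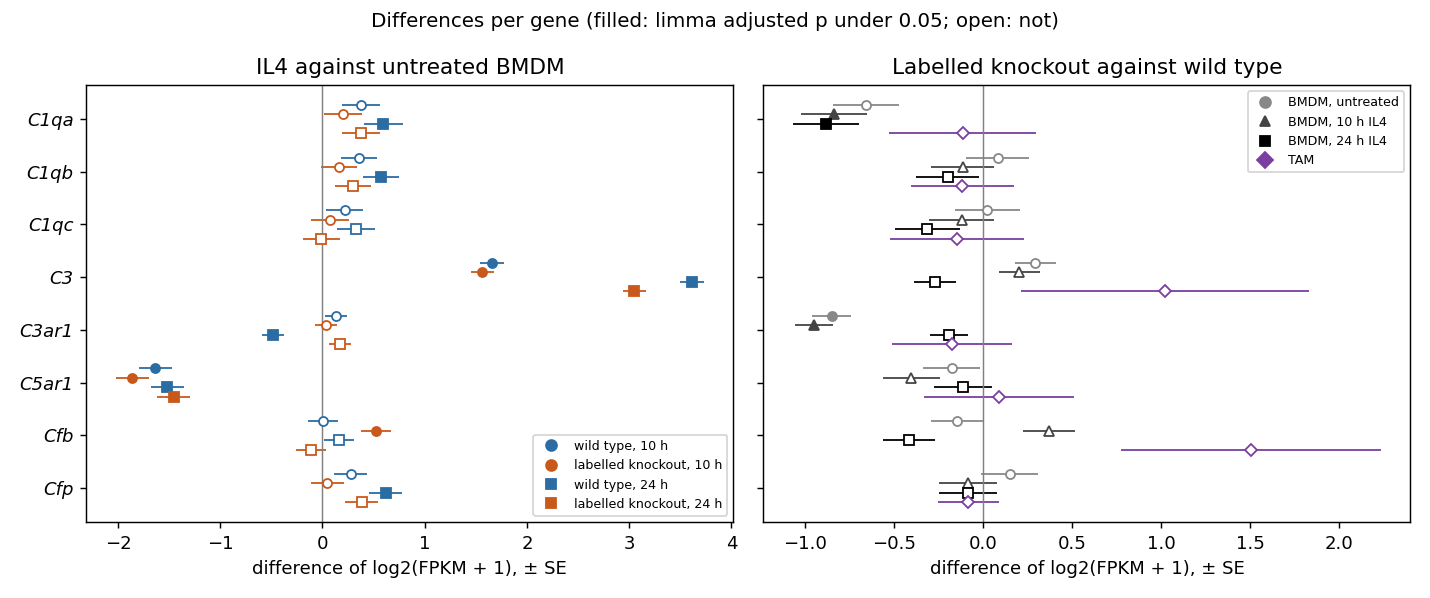
Differences of log2(FPKM + 1) with standard errors for the 8 genes: left, the effect of 10 and 24 h of IL4 by genotype; right, labelled knockout against wild type at each BMDM time and in TAM (filled symbols pass an adjusted p under 0.05). C3 lies at 3.62 and 3.05 and C5ar1 at −1.52 and −1.46 at 24 h of IL4, and C1qa and C3ar1 hold the filled symbols among the genotype differences.

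In BMDM, cell type markers moved beside the genotype differences in C1qa and C3ar1. Of the 9 macrophage markers, 3 were lower in labelled knockout at 10 h and 3 at 24 h. Itgam, also counted among the other complement genes below, was among those lower at both times. Medians over the 9 markers were −0.13 and −0.22 log2 units at 10 and 24 h, and 0.04 at 0 h. Their summed level was 15384 and 19765 FPKM against 15355 and 16207 in untreated cells, and 9855 and 11471 against 7420 and 7495 at 24 h. All 3 fibroblast markers tested were higher in labelled knockout at each time (medians 1.54, 1.55 and 0.97). The 1 T and NK cell marker tested, Cd4, was higher at each time (1.35, 1.00 and 0.57). At 0 h that list summed to 13.1 FPKM in both labelled knockout libraries against 4.52 and 4.93 in wild type. In each of these untreated libraries only 1 of the 8 listed genes was at 1 FPKM or more. With 24 h of IL4, Cd4 had differences of −1.86 log2 units in wild type and −2.64 in labelled knockout. The 1 B cell marker tested, Cd79b, was higher at 0 h (1.06), and 1 of 3 endothelial markers was higher at each time. Of 6 neutrophil markers, 1 was lower at 10 h and 2 at 24 h (medians −0.17 and −0.60), with sums of 69.1 and 105 against 151 and 153 FPKM at 24 h. The part of these shifts in the lower C1qa and C3ar1 was not tested.

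The wider complement system was read from a list of 44 further genes of the pathways, their regulators and their receptors, of which 14 could be tested in BMDM and 16 in TAM. Of the list, 7 were at 0 in all 20 libraries: the mannose-binding lectins Mbl1 and Mbl2, the terminal components C7, C8a, C8b and C9, and Susd4. The terminal pathway was otherwise nearly absent from BMDM: Hc, which encodes C5, reached at most 0.0099 FPKM and C6 at most 0.018 FPKM. Of the 14 tested genes, 4 were higher and 4 lower at 10 h of IL4 in wild type and 3 and 4 in labelled knockout, where 42.4% and 38.8% of all genes tested passed. At 24 h 7 were higher and 2 lower in wild type (median 0.28 log2 units) and 4 and 3 in labelled knockout (median 0.13), where 50.0% and 43.7% of all genes passed. From 10 to 24 h, 7 rose and 1 fell in wild type and 6 rose and 1 fell in labelled knockout, where 25.9% and 23.0% of all genes passed.

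Receptors for C3 fragments and C1q-binding proteins gave the largest of these changes at 24 h. Itgax, the alpha chain of complement receptor 4, rose from a mean of 0.214 to 73.2 FPKM in wild type and from 0.284 to 65.9 in labelled knockout, differences of 5.93 and 5.70 log2 units. Its partner Itgb2 rose by 1.68 and 1.36, and Calr, which encodes the C1q-binding chaperone calreticulin, by 1.90 and 1.42. C1qbp, a mitochondrial protein that binds C1q in vitro, rose by 0.70 and 1.15. Cd93, a receptor that was first described as binding C1q, fell from 120 to 46.9 FPKM in wild type and from 123 to 47.9 FPKM in labelled knockout. Genes past the threshold in 1 genotype at 24 h were, in wild type, Fcna (0.60), C1ra (0.42), Cd59a (0.33) and Cfhr2 (−0.41). In labelled knockout they were Lrp1 (−0.65) and C5ar2 (−0.32). Low levels lay behind some of these: wild-type means went from 1.38 to 2.16 FPKM (C1ra), 2.06 to 2.83 (Cd59a) and 0.993 to 0.502 (Cfhr2). Calls of the other complement genes, here and between genotypes, were not rerun under the alternatives. The interaction passed for none of the 14. At an unadjusted p under 0.05 there were 1 at 10 h and 2 at 24 h, where 428 and 1913 of all 10510 genes were.

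**Figure D4:**
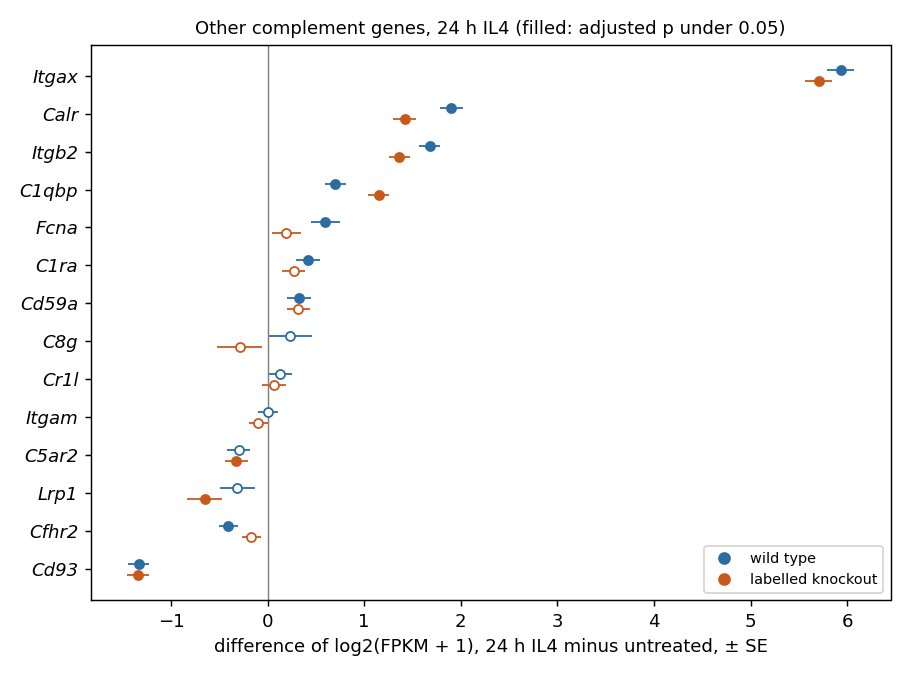
Differences of log2(FPKM + 1), 24 h of IL4 minus untreated, with standard errors for the 14 other complement genes tested in BMDM, in wild type and labelled knockout (filled symbols pass an adjusted p under 0.05). Itgax lies farthest to the right at 5.93 and 5.70, and Cd93 farthest to the left at −1.33 and −1.34.

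Between genotypes, Fcna, which encodes ficolin A, a lectin pathway recognition protein made by macrophages, was lower in labelled knockout BMDM at all 3 times. It was at 16.7 and 12.2 against 7.44 and 9.003 FPKM untreated, 15.8 and 16.0 against 7.86 and 6.25 at 10 h, and 21.4 and 23.0 against 9.25 and 9.76 at 24 h. The differences were −0.73, −1.08 and −1.14 log2 units (adjusted p = 0.0263, 0.00286 and 0.00251). Itgam, the alpha chain of complement receptor 3, was lower at 10 h (−0.53) and 24 h (−0.39), Calr was higher in untreated cells (0.52) and Cd59a, a membrane inhibitor of the terminal complex, was higher at 24 h (0.48). In all, 1 was higher and 1 lower of the 14 at 0 h, 2 were lower at 10 h, and 1 was higher and 2 lower at 24 h, where 2.70%, 2.84% and 7.43% of all genes passed.

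In TAM none of the 8 genes differed between genotypes by limma, where 0.101% of the 9897 genes tested passed. None reached an unadjusted p under 0.05, where 1676 of all genes did. The libraries of the 2 genotypes overlapped for all 8, where 12.4% of all genes were apart. The median difference of the 8 was −0.10 log2 units against 0.09 over all genes.

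C1q transcripts were again among the most abundant. C1qa was at 674, 337, 635 and 925 FPKM in the wild-type libraries 1, 2, 7 and 8 and at 351, 388, 963 and 737 in the labelled knockout libraries 3, 4, 5 and 6. C1qb was at 1195, 714, 943 and 1271 FPKM against 644, 783, 1240 and 1179, and C1qc at 636, 328, 499 and 900 against 329, 392, 767 and 630. Libraries 2, 3 and 4 were low and libraries 5 and 8 high for all 3 chains, so that the spread within a genotype was wider than the distance between genotypes. The C1qa difference was −0.12 ± 0.41 log2 units with a 95% interval of −1.06 to 0.83, which holds the BMDM difference. The neutrophil marker sum of libraries 1 to 4 was 5933 to 18898 FPKM and that of libraries 5 to 8 was 1128 to 1659 FPKM, in cells sorted on F4/80 and on CD11b, which neutrophils also carry; its part in the C1q spread was not tested.

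Cfb and C3 had median ranks of 272 and 600 among all genes of a TAM library, against 9262.5 and 2625 in BMDM; the tables were made from different RNA preparations, so the ranks are set side by side with no test. Cfb was at 168, 114, 290 and 18.9 FPKM in wild-type libraries 1, 2, 7 and 8 and at 370, 361, 206 and 264 in labelled knockout libraries 3 to 6. C3 was at 102, 87.8, 144 and 7.20 FPKM against 141, 131, 91.1 and 106. Wild-type library 8, with the high fibroblast and erythroid sums, was the lowest library for both genes. The Cfb difference was 1.51 ± 0.73 log2 units (adjusted p = 0.333) and 0.72 without library 8 (adjusted p = 0.371), and the C3 difference was 1.02 ± 0.81 (adjusted p = 0.528) and 0.085 without it (0.877). The ratio of C3 to Cfb was 0.380 to 0.770 in wild type and 0.364 to 0.443 in labelled knockout TAM. In BMDM it was 3.27 to 75.4, a range over untreated and IL4-treated libraries in which Cfb was only 0.810 to 2.32 FPKM.

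The receptors and properdin were at moderate levels in TAM. C3ar1 was at 125, 93.0, 65.3 and 109 FPKM in wild type and 55.3, 58.4, 132 and 119 in labelled knockout, a difference of −0.17 with a 95% interval of −0.94 to 0.60. C5ar1 was at 83.9, 143, 31.2 and 89.4 FPKM against 98.8, 85.7, 91.1 and 56.4, a difference of 0.09 with an interval of −0.87 to 1.05. The highest C5ar1 value was in wild-type library 2, which also had the highest neutrophil sum, 18898 FPKM; C5ar1 is abundant on neutrophils, and their part was not tested. Cfp was at 71.0, 66.8, 71.6 and 97.0 FPKM in wild type and 60.3, 67.1, 87.1 and 73.7 in labelled knockout, and its difference of −0.09 had an interval of −0.48 to 0.31.

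**Figure D5:**
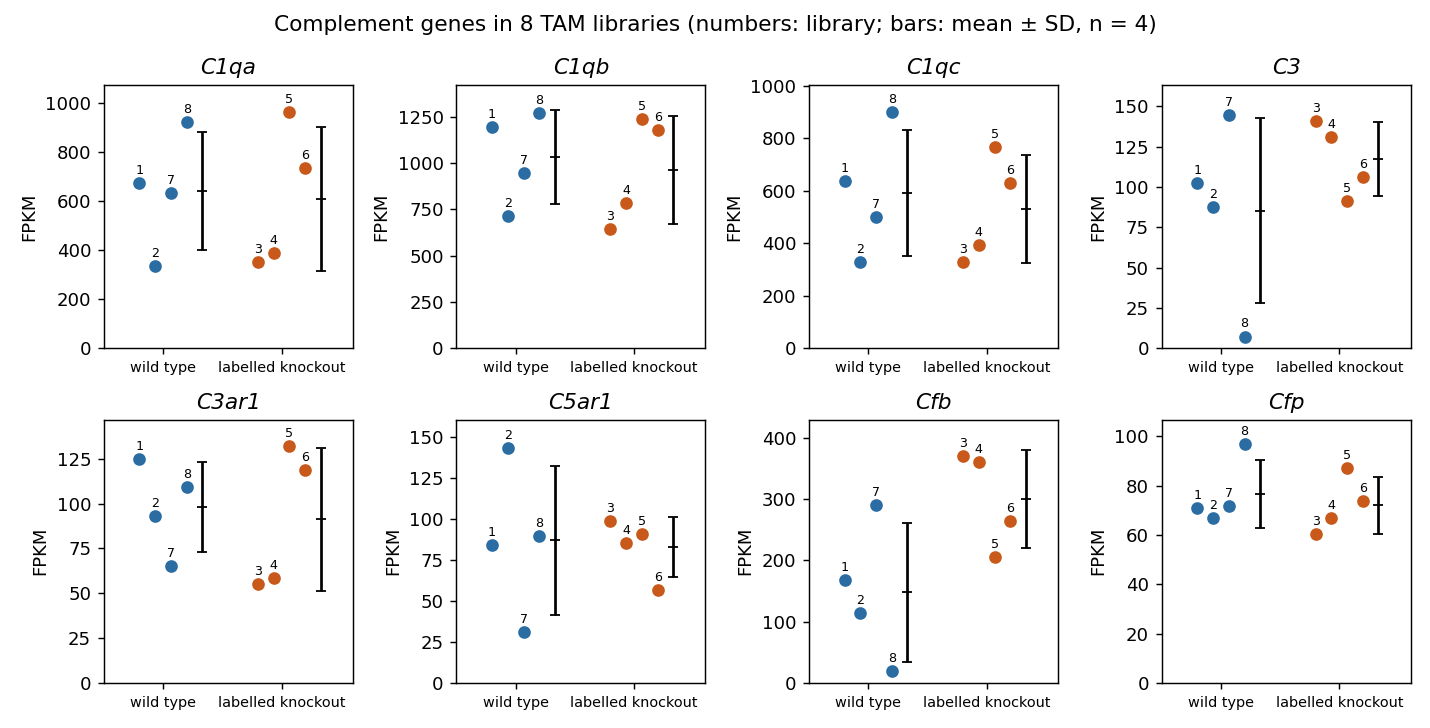
FPKM of the 8 genes in the 8 TAM libraries by genotype; numbers are libraries and bars the mean ± SD of 4. The genotypes overlap for all 8 genes, and wild-type library 8 is lowest for C3 (7.20 FPKM) and Cfb (18.9 FPKM).

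Among the 16 other complement genes tested in TAM none passed by limma. An unadjusted p under 0.05 was reached by 5, where 1676 of the 9897 genes tested reached it. Itgax was at 14.3 to 67.3 FPKM in wild-type libraries 1, 2 and 8 and 104 in library 7, against 140 to 255 in labelled knockout (1.90 ± 0.54, adjusted p = 0.168). Fcna, lower in labelled knockout BMDM, was at 6.58 to 90.03 FPKM in wild type and 1.37 to 3.57 in labelled knockout TAM (−2.23 ± 0.74, adjusted p = 0.209). The genotypes did not overlap for either gene, where 12.4% of all genes tested were apart. Itgb2 (0.67), Calr (0.68) and C1s (−0.91) were the other 3. Marker sums also differed between the genotypes in TAM. The macrophage markers summed to 3439 to 5948 FPKM in labelled knockout and 6197 to 7855 in wild type. However, none of the 9 passed, and the median difference over the list was −0.02 log2 units. The list includes Lyz2, the lysozyme M gene, and Cre sits at that locus in the labelled knockout mice. The part of Lyz2 in these sums was not tested. The dendritic cell markers summed to 15.6 to 21.8 against 5.97 to 20.4 FPKM, with a median of 0.82 log2 units over the 3 tested; dendritic cells also express Itgax. The endothelial markers summed to 20.8 to 50.6 against 5.57 to 19.5 FPKM, and the same list summed to 2.71 to 4.75 FPKM in untreated BMDM and 16.8 to 21.9 FPKM in BMDM at 24 h of IL4. The part of these shifts in the values above was not tested.

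The genes whose patterns were most like those of the 8 were taken as a description, by Pearson's r of log2(FPKM + 1), over 12 BMDM libraries that share 6 groups and over 8 TAM libraries. In BMDM, C3 was followed most closely by S100a4 (0.99), Gramd4 (0.99) and Sdf2l1 (0.99), and C5ar1 by Abca1 (0.99), Snx27 (0.98) and Rnf150 (0.98). C1qa was nearest to Hgsnat, B430306N03Rik and Ifi30 (0.95, 0.95 and 0.94), C1qb to Retsat, Tmbim1 and Nadk (each 0.96) and C1qc to Commd5, Znhit2 and Aldh16a1 (0.96, 0.95 and 0.93), so that no gene was named for more than 1 chain. C3ar1 was nearest to Ide, Btaf1 and Malat1 (0.94, 0.94 and 0.91), Cfp to Cyth4, Glb1 and Tspo (0.97, 0.96 and 0.96) and Cfb, at its low level, to Acbd6, Brd2 and Traf2 (0.88, 0.79 and 0.78). Among the 8 themselves, C1qb and Cfp had an r of 0.94 in BMDM, C1qb and C1qc 0.84 and C1qa and C1qb 0.66.

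In TAM the 3 C1q chains moved together across libraries, with r of 0.96 to 0.98 for their 3 pairs, and Ints7 was among the nearest genes of each chain (0.99, 0.98 and 0.98). C3 and Cfb had an r of 0.96, a value to which wild-type library 8 contributes as the lowest of both. Cfb was nearest to Irf7, Ciita and Mndal (each 0.99) and C3 to Spon1, Cxcl9 and H2-Aa (each 0.99). Library 8, lowest for Cfb and C3, enters these r values as well, and they were not computed without it. The nearest genes were B4galt6, Phf17 and Vwa8 for C3ar1 (0.97, 0.96 and 0.96), Zfp207, A730017L22Rik and Fam122a for C5ar1 (0.96, 0.95 and 0.94) and Tm7sf3, Gstm5 and Irf2bp1 for Cfp (each 0.98).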

How the data were processed

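The authors deposited 2 tables of FPKM per gene symbol, which the submitters' processing notes tie to TopHat, Cuffdiff and the mouse build mm9; versions, annotation and filters are not given in the sources used here, and the header of the TAM table names no unit. FPKM has no depth, so library scaling was taken as deposited. Of 2 symbols listed more than once the row with the highest mean was kept, which left 23307. Values were tested as log2(FPKM + 1), which understates changes of low genes, with limma 3.58.1 (R 4.3.3; lmFit, eBayes with trend). Genes reaching 1 FPKM in at least 2 BMDM libraries (10510) or 4 TAM libraries (9897) were tested, with Benjamini-Hochberg adjustment over all of them and a threshold of 0.05. The 12 BMDM libraries were fitted as 6 groups (total degrees of freedom 10.3), the 8 TAM libraries as 2 (8.5). The fits were run on simulated data with independent noise and no differences of scale between libraries. That run therefore says nothing on scaling or on samples that are not independent. Members and lists were chosen with earlier results of these data known. All 8 members are named in each comparison; other complement genes are named where past the threshold at 24 h, between genotypes or in TAM, or at 0 throughout (some listed genes are not reported here and are in no count of the list), and the TAM genes at an unadjusted p under 0.05, C5, C6 and the chain ratios were added after their values were seen. The alternatives were another pseudocount (0.1), 2 other filters, 2 scalings, eBayes without trend, a replicate block, fits of the compared libraries alone and each library left out.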

Additional observations from a re-analysis of the deposited data

Results flagged for a closer look

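Cfp was at 97.0 FPKM in wild-type TAM library 8, while the other 3 wild-type TAM libraries lay between 66.8 and 71.6 FPKM, a gap large enough for the sample to count as standing apart among 4. This is the library with the highest fibroblast and erythroid marker sums, and without it the Cfp genotype difference in TAM was 0.033 log2 units. Chance sets such a library apart in about 1 in 20 groups of this kind, and 16 gene and group pairs were examined.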

How the results depend on the processing

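Across the alternatives run, the rise of C3 and the fall of C5ar1 with IL4 kept their direction and their call in both genotypes, and C1qa and C3ar1 were lower in labelled knockout BMDM under all of them. The depth behind FPKM is unknown, and with 2 libraries a group a left-out library leaves a lone sample that is assumed to vary like the other groups. The cause of a change was not tested unless stated.

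The larger moves in the counts of the 8 genes past the threshold are listed here, and smaller moves are not. Without a filter (more genes tested) the counts were 1 from 10 to 24 h in labelled knockout, 1 between genotypes at 10 h and 0 at 24 h. C1qa and C1qb also lost their wild-type 24 h calls, and Cfb lost its 10 h call in labelled knockout. With 1 FPKM asked of every library, which drops Cfb, the count was 1 from 10 to 24 h in labelled knockout. Median-of-ratios scaling gave 2 between genotypes at 0 h and 1 for the 24 h interaction; quantile normalization gave 4 in wild type at 10 h, 3 at 24 h, 2 between genotypes at 0 h and 1 for the 24 h interaction. Fits of the compared libraries alone (fewer samples) gave 2 in wild type at 24 h, 4 in labelled knockout at 24 h and 4 from 10 to 24 h, and 0 between genotypes at 0 h and at 24 h. Leaving out 1 library gave 2 to 5 in wild type at 10 h (5 without untreated wild-type replicate 1), 3 to 7 at 24 h, 1 to 2 in labelled knockout from 10 to 24 h, 1 between genotypes at 10 h, 0 to 2 at 24 h and 0 to 1 for the 24 h interaction.

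Same-numbered libraries deviated together with correlations of −0.14 to 0.15 over 15 pairs of groups, 5 of them over 0.1, so the numbers do not pair the samples. With the replicate block, C1qa between genotypes at 10 h had an adjusted p of 0.0707, which left 1 gene past the threshold; the block changed no other call of the 8 genes. No paired analysis was possible in TAM because the genotypes share no replicate numbers.

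Differences that changed sign were small ones, other than under quantile normalization, which moved the median of all genes in wild type at 10 h by −0.11. With median-of-ratios scaling they were Cfb in wild type at 10 h (−0.057), C1qc, C3ar1 and Cfp in labelled knockout at 10 h (−0.0011, −0.037 and −0.027) and C1qc between genotypes at 0 h (−0.033). With quantile normalization they were C1qc, C3ar1 and Cfp in wild type at 10 h (−0.053, −0.36 and −0.26, the last 2 with adjusted p = 0.0228 and 0.0476); C1qa, C1qb, C1qc and Cfp at 24 h (−0.081, −0.055, −0.24 and −0.044); C1qa, C1qb and C1qc from 10 to 24 h (−0.095, −0.19 and −0.19); C3ar1 and Cfp in labelled knockout at 10 h (−0.24 and −0.30, the latter with adjusted p = 0.0285) and at 24 h (−0.088 and −0.0072). Between genotypes they were C1qb, C1qc and Cfp at 0 h (−0.014, −0.22 and −0.054), C1qb at 24 h (0.15) and in the mean (0.0066), C1qc and C3ar1 in the 10 h interaction (0.075 and 0.12), C1qa, C1qb, C1qc and Cfp in the 24 h interaction (0.26, 0.17, 0.21 and 0.037) and C5ar1 in TAM (−0.18).

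With 1 library left out, the differences that crossed 0 spanned, in wild type, −0.15 to 0.17 (Cfb, 10 h), −0.0039 to 0.32 (Cfb, 24 h) and, from 10 to 24 h, −0.063 to 0.50 (C1qa), −0.032 to 0.47 (C1qb), −0.18 to 0.40 (C1qc) and −0.14 to 0.37 (C5ar1). In labelled knockout they spanned −0.066 to 0.14 (C3ar1, 10 h), −0.067 to 0.045 (C1qc, 24 h) and −0.25 to 0.015 (Cfb, 24 h). Between genotypes they spanned −0.079 to 0.24 (C1qb), −0.13 to 0.17 (C1qc), −0.31 to 0.017 (Cfb) and −0.052 to 0.35 (Cfp) at 0 h; −0.45 to 0.049 (C1qb), −0.37 to 0.14 (C5ar1) and −0.31 to 0.14 (Cfp) at 24 h; and −0.16 to 0.0050 (C1qb) and −0.083 to 0.067 (Cfp) in the mean. Interactions spanned −0.36 to 0.0093 (C1qa), −0.29 to 0.0046 (C1qc), −0.24 to 0.055 (C3) and −0.20 to 0.0030 (C3ar1) at 10 h and −0.50 to 0.058 (C1qa) and −0.20 to 0.32 (C5ar1) at 24 h. TAM differences spanned −0.40 to 0.11 (C1qa), −0.28 to 0.057 (C1qb), −0.40 to 0.086 (C1qc), −0.39 to 0.027 (C3ar1), −0.33 to 0.39 (C5ar1) and −0.18 to 0.033 (Cfp).

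Over all genes tested, the number past the threshold ranged under the alternatives from 98 to 1392 between genotypes at 0 h (284 as reported), 94 to 427 at 10 h (299), 18 to 1257 at 24 h (781) and 613 to 1789 in the mean (1045), the extremes coming from a left-out library or, for 18 and 427, from fits of the compared libraries alone. It ranged from 2 to 124 (10) and 8 to 1169 (31) for the interactions, 1 to 23 (10) in TAM, 2859 to 5007 (4461) and 2708 to 5532 (4074) at 10 h, 2908 to 5676 (5255) and 3174 to 5714 (4590) at 24 h, and 1230 to 3135 (2726) and 1236 to 3413 (2422) from 10 to 24 h, wild type first.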
